A study of Mus musculus with 48 samples.

Results

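The genes described here are 10 that mark the microglia of developing white matter and the disease-associated state of adult microglia: Apoe, Spp1, Itgax, Clec7a, Lpl, Cst7, Igf1, Gpnmb, Axl and Lgals3. They were taken as a fixed list of gene names, with earlier results of these data known, from the 21747 genes named on a whole-genome Agilent array, and 15 of its 55681 non-control probes matched them. RNA had been measured on 48 arrays, 6 in each of 8 groups. The groups were O4+ cells (late oligodendrocyte precursors and immature oligodendrocytes) and CD11B+ cells (microglia and other myeloid cells) from the brains of male Swiss mouse pups, at postnatal day 5 (P5) or 10 (P10), after intraperitoneal injections of PBS or of interleukin-1 beta (IL1B, a proinflammatory cytokine, 10 ng/g) from P1 to P5. The labels name no mutation or transgene in any group. The cells came from magnetic sorting, one type after the other, of dissociated brains, with several brains pooled for a sample, so a sample was an enriched fraction and not a pure cell type. P5 samples were taken on the day of the last injection and P10 samples 5 days later. The comparisons asked whether these genes responded to the systemic inflammation in each cell fraction, and whether the response was the same at the end of the exposure and after it.

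As background, microglia in early postnatal white matter pass through an amoeboid, phagocytic stage in which Spp1, Itgax, Igf1, Gpnmb, Clec7a and Lpl are high, and they leave it as myelination proceeds. Much of the same programme returns in adult microglia around amyloid plaques, in demyelination and in ageing white matter, where full induction depends on the lipid-sensing receptor Trem2 and its adaptor Tyrobp. By role, the members fall into lipid handling (Apoe, a lipid carrier, and Lpl, the lipase that frees fatty acids from lipoproteins), secreted factors (Spp1 or osteopontin, a phosphoprotein ligand of integrins and Cd44; Igf1, a growth factor for oligodendrocytes; Lgals3 or galectin-3, a galactoside-binding lectin), surface proteins (Itgax or CD11c, an integrin chain that pairs with Itgb2; Clec7a or dectin-1, a beta-glucan receptor that signals through Syk and Card9; Axl, a receptor tyrosine kinase for Gas6 that takes part in the uptake of dying cells; Gpnmb, a glycoprotein of lysosomes and the cell surface) and Cst7 (cystatin F, an inhibitor of lysosomal cysteine proteases).

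The fractions matched their labels: 10 of 10 oligodendrocyte lineage markers were higher in O4+ than in CD11B+ cells in PBS pups at both stages, and 12 of 12 microglia markers (Csf1r, C1qa, Cx3cr1 and others) were lower. All 12 microglia markers were nevertheless well above background on every O4+ array. Levels are given as log2 of the background-subtracted intensity after quantile normalization, and a level of one probe cannot be set against that of another. On each array, 52.9% to 65.4% of probes were well above background, and 2 arrays of a group correlated at 0.959 or more. The arrays lay on 9 slides scanned on 5 days, and in each cell type no slide or scan day held both P5 and P10 PBS arrays. One array stood apart: PBS replicate 6 of the P10 CD11B+ cells had a mean log2 level of 10 neutrophil markers of 11.79, against 9.22 to 9.71 on the other 5 arrays of its group, and it was the highest of its group for Axl (10.68), Clec7a (11.64), Lgals3 (12.14) and Itgax (11.20). The counts of members called in comparisons with the P10 CD11B+ PBS group are given with and without it, with the values of several members. The lists of microglia markers and of homeostatic microglia genes used below share 5 genes, among them Csf1r, Cx3cr1, P2ry12 and Tmem119.

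The start regions of 4 members, Spp1, Igf1, Clec7a and Itgax, are shown first, to give the DNA letters upstream of them. They are the 250 bases before an annotated RefSeq start site (GRCm38.p6), 5′ to 3′ on the strand of the gene. Capitals mark the core letters bound by the myeloid factor PU.1 (GAGGAA) and a loose form of the AP-1 site (TGANTCA, where N is any base). Each was searched on both strands. Each window shown holds a marked motif, while some windows not shown, such as that of Gpnmb and another one of Spp1, hold neither.
Spp1 (chr5:104434861-104435110, plus strand): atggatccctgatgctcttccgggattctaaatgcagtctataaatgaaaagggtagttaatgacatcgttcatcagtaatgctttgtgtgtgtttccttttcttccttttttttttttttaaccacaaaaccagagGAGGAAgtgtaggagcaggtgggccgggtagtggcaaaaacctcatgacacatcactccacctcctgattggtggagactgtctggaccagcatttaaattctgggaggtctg
Igf1 (chr10:87860861-87861110, plus strand): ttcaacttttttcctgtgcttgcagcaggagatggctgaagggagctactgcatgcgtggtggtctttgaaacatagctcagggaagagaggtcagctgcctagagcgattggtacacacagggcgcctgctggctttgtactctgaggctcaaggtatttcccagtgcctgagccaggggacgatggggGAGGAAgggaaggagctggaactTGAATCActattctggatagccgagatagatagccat
Clec7a (chr6:129472780-129473029, minus strand): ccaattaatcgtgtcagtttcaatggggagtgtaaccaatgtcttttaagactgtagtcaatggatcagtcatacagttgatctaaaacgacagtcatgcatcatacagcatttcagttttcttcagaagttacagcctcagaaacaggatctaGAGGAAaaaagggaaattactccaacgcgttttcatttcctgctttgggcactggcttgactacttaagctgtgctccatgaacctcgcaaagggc
Itgax (chr7:128129300-128129549, plus strand): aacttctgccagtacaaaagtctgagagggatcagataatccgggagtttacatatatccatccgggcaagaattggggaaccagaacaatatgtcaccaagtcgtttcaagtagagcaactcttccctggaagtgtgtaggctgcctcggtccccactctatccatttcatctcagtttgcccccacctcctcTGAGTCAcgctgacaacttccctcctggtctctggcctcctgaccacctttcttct
The table of start regions held 9 of the 10 members, with 13 start sites, and Lpl had no entry in it. The GAGGAA letters were found in 7 of these 13 windows (of Apoe, Axl, Clec7a, Igf1 and Spp1), where start sites of 1 gene can overlap in sequence, and 23.3% of all 32851 windows of this length held them. TGANTCA was found in 2 of 13 (Igf1, as TGAATCA, and Itgax, as TGAGTCA) against 6.75% of all windows. TCANGTG, a loose form of the site of the lysosomal regulators Mitf and Tfeb, was found in 2 of 13 against 12.2%. Its matches read TCAAGTG in Cst7 and TCAGGTG in Lgals3. As N was any base, a match to either loose form need not be the site itself. The NF-kB motif was found in 0 of 13, and 1.41% of all windows held it. A match of letters is a description of the window and not a measured binding site.

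Without inflammation, the programme was high at P5 and lower at P10 in CD11B+ cells. A gene was called when its limma p-value, adjusted over all probes, was under 0.05 and the ratio of the group medians was over 1.5 either way. Of the 10 members, 0 rose and 9 fell from P5 to P10 in PBS pups, where 4.73% of all named genes rose and 4.8% fell. The median log2 change of the members was -1.52, against 0 over all named genes. Spp1 had the largest fall of the members. Its level at P5 lay between 13.26 and 13.82 (median 13.61) and at P10 between 10.20 and 11.63 (median 10.77), a 7.18-fold lower median (log2 change -2.78 ± 0.21 (SE, n = 6 per group), adjusted p = 9.57e-06). The 2 groups did not overlap. For Itgax, P5 levels of 12.18 to 12.87 (median 12.56) stood against 9.98 to 11.20 (median 10.16), a 5.3-fold fall (-2.25 ± 0.20, adjusted p = 2.42e-05). Igf1 went from 11.72 to 12.07 (median 11.96) at P5 to 9.78 to 10.93 (median 10.26) at P10, a 3.23-fold fall (-1.65 ± 0.16, adjusted p = 3.87e-05). Neither of these genes had overlapping groups.

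Clec7a (-1.51 on the log2 scale, 3.14-fold), Lpl (-1.55, 3.02-fold), Gpnmb (-1.54, 2.58-fold) and Cst7 (-0.95, 1.9-fold) also fell in CD11B+ cells, each with P5 and P10 groups that did not overlap. Axl fell 2.14-fold and Lgals3 1.87-fold, and for both PBS replicate 6 at P10 reached into the P5 range. Without that array the log2 changes of Axl and Lgals3 were -1.23 and -1.02, against -1.02 and -0.82 with it, and 9 of 10 members were still called, with changes of -2.94 for Spp1, -2.43 for Itgax and -1.70 for Clec7a. Apoe was the member that was not called: its level lay between 18.27 and 18.30 at P5 and between 17.78 and 18.10 at P10, with no overlap and an adjusted p of 0.000489, but the ratio of medians was only 1.28. Before normalization, its mean raw intensity on these P5 arrays ran from 296128 to 338754. Across the processing alternatives its log2 change ran from -0.46 to -0.35. Stage cannot be told apart from slide and scan day, which held arrays of 1 stage each. With slide as a random block 8 members were called, without Lgals3 (adjusted p = 0.103), and with scan day as a random block 6 were, without Gpnmb, Axl and Lgals3 (adjusted p = 0.0879, 0.133 and 0.272).

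Of 14 genes that mark resting, homeostatic microglia, 6 rose and 0 fell in CD11B+ cells from P5 to P10, among them Selplg (1.85 on the log2 scale), Tmem119 (1.57), the purine receptor P2ry13 (0.95) and the transcription factor Sall1 (0.73). Of 20 other genes of the disease-associated programme, 0 rose and 11 fell with a median log2 change of -0.62 over the list, led by the fatty acid binding protein Fabp5 (-1.86), the proton pump subunit Atp6v0d2 (-1.24), Lgals1 (-1.20) and Csf1 (-1.15). Among 20 receptors and partners of the member proteins, 2 rose (among them Tyro3, a relative of Axl, 0.89) and 2 fell (Abca1, which loads lipid onto Apoe, -0.85, and Cd44, a receptor for Spp1, -0.70). The 12 general microglia markers had a median change of 0.20, with 2 higher and 0 lower. Other cell types moved as well: 6 of 6 border macrophage markers fell (median -0.86, mean levels 13.31 to 13.54 at P5 and 12.31 to 12.71 at P10), 6 of 7 endothelial markers fell (median -0.65, 9.59 to 10.24 and 9.12 to 9.44), and 7 of 10 oligodendrocyte lineage markers rose (median 0.84, 9.69 to 10.28 and 10.98 to 11.54). Their part in the members' fall was not tested.

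In O4+ cells members fell as well, and whether by more than in CD11B+ cells was not tested. Of 10 members 0 rose and 9 fell from P5 to P10 in PBS pups, where 8.48% of all named genes rose and 12.8% fell. The median log2 change was -1.98 against -0.01 over all named genes. Spp1 lay between 9.48 and 10.59 (median 10.04) at P5 and between 4.41 and 6.48 (median 5.85) at P10, an 18.3-fold fall (-4.30 ± 0.36, adjusted p = 2.97e-06). Its signal was well above background on 5 of 6 P10 arrays, and with normexp background correction its change was -3.23. Itgax fell 8.84-fold (-3.24), Clec7a 7.82-fold (-3.25), Cst7 5.42-fold (-2.26), Lpl 4.47-fold (-2.16), Igf1 2.88-fold (-1.55), Gpnmb 2.84-fold (-1.79), Lgals3 1.87-fold (-0.95) and Apoe 1.65-fold (-0.72). Cst7 was well above background on only 1 of the 6 P10 arrays, so its change is less certain in size. Clec7a and Gpnmb were so on 5 of 6. Across the processing alternatives the smallest changes were -2.16 for Itgax, -1.92 for Clec7a and -0.61 for Cst7, each still called. Axl had an adjusted p of 0.000118 and a ratio of 1.44, under the fold required. Gpnmb lost its call with slide as a random block (adjusted p = 0.0524), and Apoe when arrays were scaled to their 75th percentile (1.27-fold).

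Beside these falls, 11 of 12 microglia markers also fell in O4+ cells (median log2 change -1.28), and so did 8 of 14 homeostatic genes (median -0.93), among them the fractalkine receptor Cx3cr1 (-1.24). The mean log2 level of the microglia markers ran from 12.18 to 12.85 at P5 and from 11.17 to 11.95 at P10 in PBS O4+ arrays. In a sorted bulk fraction, fewer microglia and less of these transcripts per microglial cell cannot be told apart. The part of microglial RNA in the O4+ values was not tested.

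**Figure D1:**
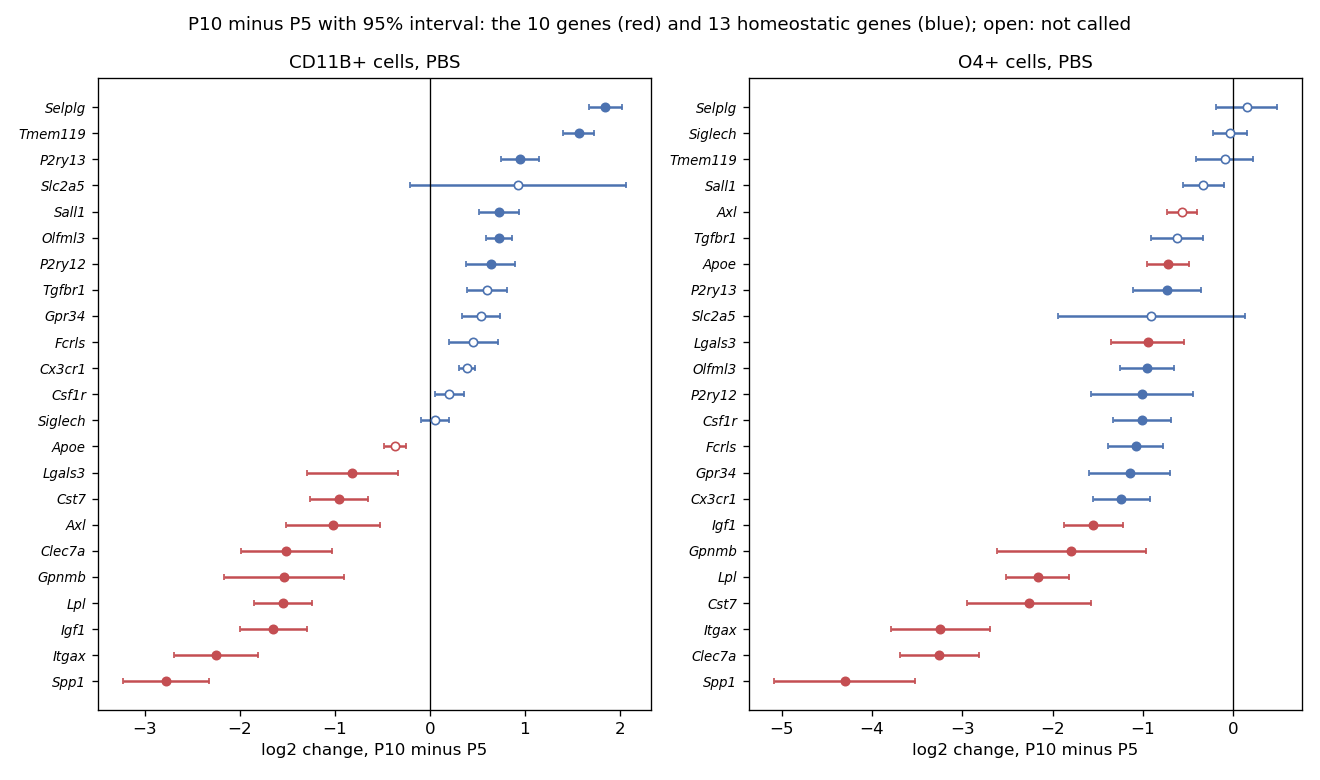
Log2 change from P5 to P10 in PBS pups (x axis) of the 10 members (red) and of 13 of the 14 homeostatic microglia genes (blue), in CD11B+ cells (left) and O4+ cells (right), with 95% confidence intervals of the limma fit (n = 6 arrays per group) and open points for genes not called. All members lie below 0 in both panels, with Spp1 furthest from it (-2.78 and -4.30), while the homeostatic genes lie above 0 in CD11B+ cells.

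At P5, on the last day of IL1B exposure, CD11B+ cells split the programme into members that rose, members that fell and members that passed neither test. Of 10 members 3 rose and 2 fell, where 5.46% of all named genes rose and 7.7% fell. The median log2 change over the members was -0.04, against -0.06 over all named genes. Lgals3 rose most: its level was 11.73 to 12.18 (median 11.97) after PBS and 14.10 to 14.75 (median 14.54) after IL1B, a 5.94-fold higher median (2.52 ± 0.12, adjusted p = 1.08e-07). Axl rose 4.99-fold, from 10.40 to 10.84 (median 10.59) to 12.74 to 13.26 (median 12.91) (2.33 ± 0.10, adjusted p = 6.17e-08). Clec7a rose 2.01-fold, from 11.86 to 12.68 (median 12.22) to 13.15 to 13.30 (median 13.23) (0.98 ± 0.13, adjusted p = 0.000196). In these 3 genes every IL1B array was above every PBS array.

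The members that fell at P5 were Lpl and Itgax. Lpl lay between 13.35 and 13.93 (median 13.79) after PBS and between 12.39 and 12.75 (median 12.49) after IL1B, a 2.46-fold fall (-1.18 ± 0.10, adjusted p = 1.06e-05). Itgax lay between 12.18 and 12.87 (median 12.56) and between 11.49 and 11.94 (median 11.73), a 1.79-fold fall (-0.83 ± 0.12, adjusted p = 0.000437). Both genes again had groups that did not overlap. With slide as a block, Itgax was no longer called (-0.74, adjusted p = 0.152), and the other 4 calls held. On the one slide that carried both treatments, with 4 IL1B arrays against 1 PBS array, 5 members were higher and 5 lower after IL1B.

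For the other 5 members the change at P5 was smaller. Igf1 was 1.38-fold lower (-0.44, adjusted p = 0.0017) and Cst7 1.32-fold higher (0.42, adjusted p = 0.0315), both under the fold required. Spp1 (-0.13, 95% interval -0.58 to 0.31), Gpnmb (-0.29, -0.64 to 0.07) and Apoe (0.06, -0.02 to 0.14) had intervals that included 0. Across the processing alternatives the change of Apoe ran from 0.06 to 0.34 and was never called. The main fit lies at the low end of that range. Quantile normalization can narrow differences of a very bright probe, so the size of this change is uncertain. Spp1 spread more widely after IL1B, from 12.94 to 14.02, than after PBS, from 13.26 to 13.82.

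The CD11B+ fraction carried more signal of other myeloid cells at P5 after IL1B. All 10 neutrophil markers rose (median log2 change 4.39, for example Ly6g 5.25 and Retnlg 5.27), and their mean log2 level ran from 9.11 to 10.40 after PBS and from 13.05 to 14.05 after IL1B. Of 5 monocyte markers measured 3 rose (Ccr2 0.95, Plac8 2.40 and Chi3l3 4.03), with mean levels of 9.76 to 10.13 and 11.22 to 11.71. Of 6 dendritic cell markers 2 rose (Flt3 and Ccr7), while Xcr1 and Clec9a were well above background on no array of either group. Of 7 endothelial markers 5 fell. The 12 microglia markers did not shift together (1 higher, 1 lower, median 0.05), and 6 of 14 homeostatic genes fell, led by the fructose transporter Slc2a5 (-1.51), Gpr34 (-0.86), Fcrls (-0.84) and the purine receptor P2ry12 (-0.73). Lgals3 and Itgax are expressed by neutrophils, monocytes or dendritic cells too, and the part of such cells in the changes was not tested.

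Of the 20 other genes of the disease-associated programme, 2 rose at P5, the inhibitory receptor Lilrb4 (1.66) and the surface glycoprotein Cd52 (1.46), and 3 fell, with Atp6v0d2 (-1.54) and the pyrophosphate transporter Ank (-1.13) the largest. Among receptors and partners, Cd44, a receptor for Spp1, rose by 2.02 on the log2 scale and Itgb2, the partner chain of Itgax, by 1.04, while Tyro3 fell by 1.13.

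**Figure D2:**
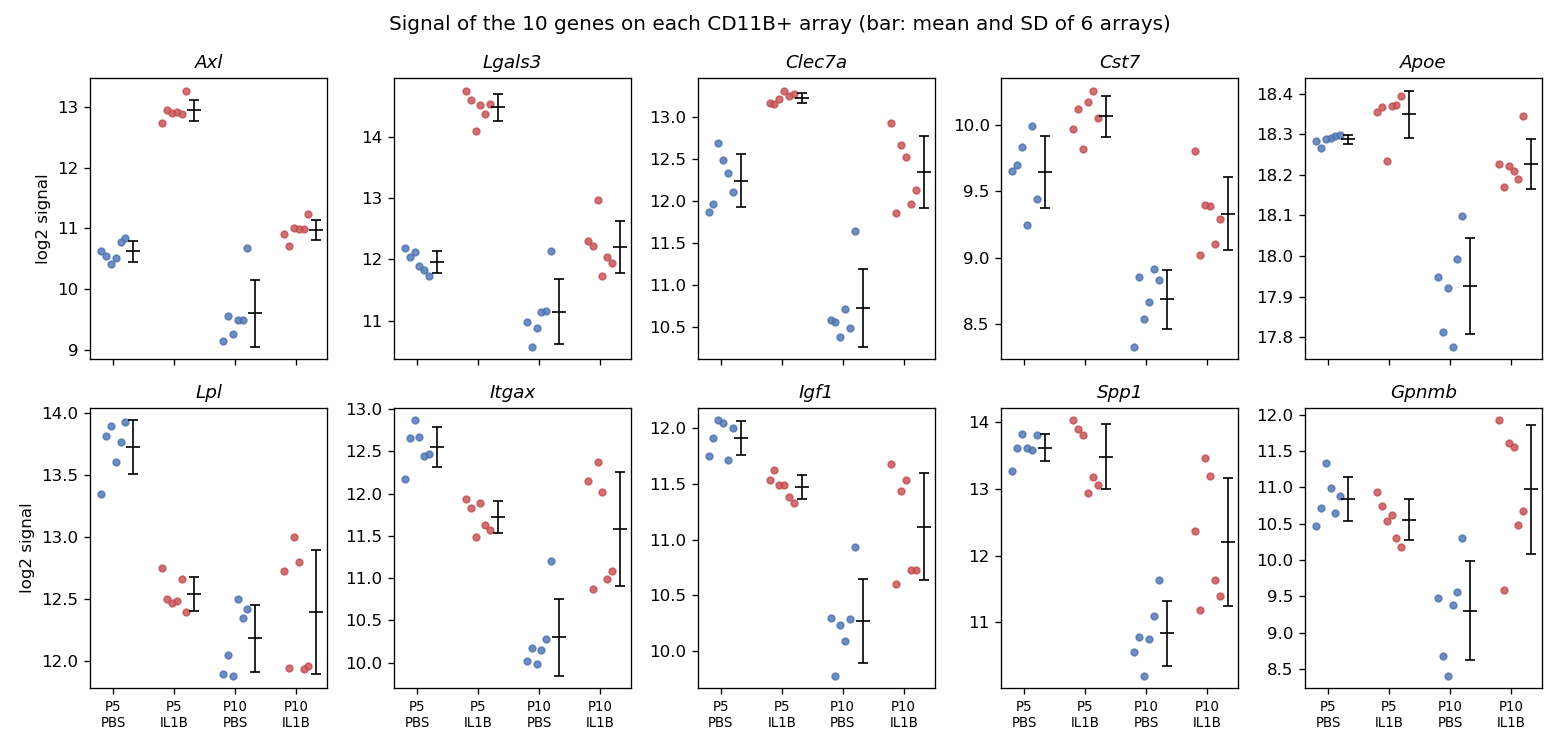
Log2 level of each member on each CD11B+ array (y axis, quantile-normalized), for PBS and IL1B at P5 and P10, with 1 point per array and the mean and SD beside them (n = 6 per group). Each panel has its own axis range. Lgals3 and Axl stand highest at P5 after IL1B, and Lpl and Itgax stand lower there than after PBS. At P10 the IL1B points of Spp1, Itgax and Gpnmb spread widely, reach above the PBS points and in part overlap them.

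At P10, 5 days after the last injection, the direction in CD11B+ cells was upward for all 10 members, though not all passed the test. Of 10 members 6 rose and 0 fell, where 1.56% of all named genes rose and 1.2% fell. The median log2 change was 1.17, against 0.005 over all named genes. Clec7a rose 3.37-fold, from 10.38 to 11.64 (median 10.57) after PBS to 11.85 to 12.92 (median 12.32) after IL1B (1.61 ± 0.24, adjusted p = 0.0137). Axl rose 2.82-fold, from 9.14 to 10.68 (median 9.49) to 10.71 to 11.23 (median 10.99) (1.37 ± 0.22, adjusted p = 0.0146). Cst7 rose 1.5-fold, from 8.33 to 8.91 (median 8.75) to 9.02 to 9.80 (median 9.34) (0.64 ± 0.14, adjusted p = 0.0259). These 3 genes had groups that did not overlap, although for Axl the gap between the highest PBS and the lowest IL1B array was small.

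Gpnmb rose 3.22-fold, from 8.41 to 10.31 (median 9.43) to 9.58 to 11.92 (median 11.11) (1.67 ± 0.43, adjusted p = 0.0452). Itgax rose 2.63-fold, from 9.98 to 11.20 (median 10.16) to 10.87 to 12.37 (median 11.55) (1.28 ± 0.31, adjusted p = 0.0384). Lgals3 rose 2.11-fold, from 10.58 to 12.14 (median 11.06) to 11.72 to 12.96 (median 12.13) (1.05 ± 0.27, adjusted p = 0.0413). The groups of these 3 genes overlapped. Spp1 (2.35-fold, 10.20 to 11.63 after PBS and 11.19 to 13.46 after IL1B, adjusted p = 0.0722) and Igf1 (1.77-fold, 9.78 to 10.93 and 10.60 to 11.68, adjusted p = 0.0568) were not called, and their groups overlapped as well. Apoe was higher on every IL1B array (18.17 to 18.35 against 17.78 to 18.10) with an adjusted p of 0.0187, but only 1.21-fold. Lpl differed by 0.21 (95% interval -0.28 to 0.70).

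The count at P10 depended on single arrays. Only Clec7a and Axl were called with each of the 12 arrays left out in turn. Without PBS replicate 6 there were 8 calls, with Spp1 (1.53, adjusted p = 0.0408) and Igf1 (0.98, adjusted p = 0.0178) added, and the changes of the other 6 were 1.87 for Gpnmb, 1.80 for Clec7a, 1.58 for Axl, 1.46 for Itgax, 1.25 for Lgals3 and 0.67 for Cst7. There were 2 calls without PBS replicate 1, 2, 3 or 4 or IL1B replicate 1 or 3, and 3 without PBS replicate 5 or IL1B replicate 4 or 5. Cst7 kept its call in 5 of the 12 fits, Itgax in 3, and Gpnmb and Lgals3 in 2 each. In the limma fit with slide as a block 0 members were called (adjusted p = 0.328 for Clec7a and 0.386 for Axl), with 4 at an unadjusted p under 0.05, and the methods' t-test without the block called 3. On the one slide with both treatments, with 5 IL1B arrays against PBS replicates 5 and 6, all 10 members were higher after IL1B, by 0.10 to 1.32 on the log2 scale with a median of 0.72.

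Beside these values at P10, 0 of 10 neutrophil markers and 0 of 5 monocyte markers were called by limma after IL1B, with 7 and 4 at an unadjusted p under 0.05. The neutrophil markers had a median change of 1.16 and mean levels of 10.30 to 11.33, against 9.22 to 11.79 after PBS. Of 6 dendritic cell markers 4 rose (Flt3, Cd209a, Ccr7 and Clec9a, the last by 1.77), with mean levels of 5.38 to 6.08 against 4.70 to 5.42. Clec9a was well above background on no PBS array, so the size of its rise is uncertain. The part of these cell types in the changes of Itgax and the other members was not tested. Of 12 microglia markers (median -0.05) and 14 homeostatic genes (median -0.22) 0 were called by limma, with 8 and 10 at an unadjusted p under 0.05. Among the other disease-associated genes 3 of 20 rose, Lilrb4 (0.95), Csf1 (0.79) and the protease Ctsz (0.60), and among the receptors and partners only Tyro3 was called, lower by 0.66.

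The change with stage was then tested as an interaction, the log2 change at P10 minus that at P5, called at an adjusted p under 0.05 with no fold required. In CD11B+ cells 6 members had a more positive response at P10 and 2 a less positive one, where 16.7% and 7.89% of all named genes did. Itgax (2.11 ± 0.34, adjusted p = 0.00015) and Lpl (1.40 ± 0.25, adjusted p = 0.000371), lower at P5, and Gpnmb (1.95), Spp1 (1.502), Igf1 (1.29) and Apoe (0.24) made up the first set. Lgals3 (-1.47, adjusted p = 0.00115) and Axl (-0.96, adjusted p = 0.00963), which rose at both stages, made up the second. Clec7a and Cst7 were not called. Spp1 lost its interaction call without P5 IL1B replicate 4, 5 or 6, P10 PBS replicate 1 or 3, or P10 IL1B replicate 3 or 4 (adjusted p = 0.0508 to 0.0599), and Clec7a gained one without P10 PBS replicate 6 (0.81, adjusted p = 0.016). Axl and Lgals3 were the 2 members called with slide as a block. Apoe lost its call under scaling to the 75th percentile (0.07, adjusted p = 0.831). The 2 stages share no arrays, but their slides differ.

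**Figure D3:**
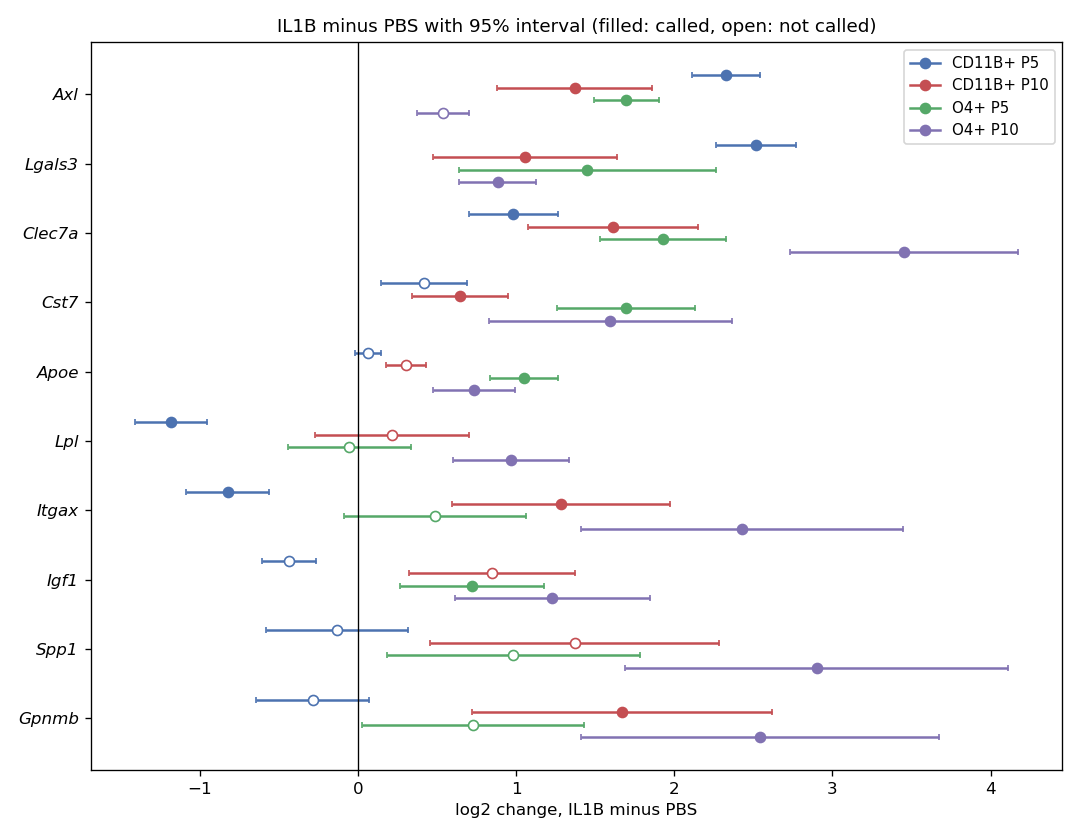
Log2 change after IL1B (x axis) of the 10 members in CD11B+ and O4+ cells at P5 and P10, with 95% confidence intervals of the limma fit (n = 6 arrays per group) and open points for changes not called. In CD11B+ cells at P5 the values run from -1.18 (Lpl) to 2.52 (Lgals3), and at P10 in both fractions all 10 lie above 0.

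The spread after IL1B at P10 was shared among members and between fractions. In both CD11B+ and O4+ cells, the 3 highest IL1B arrays of 7 members (Clec7a, Cst7, Gpnmb, Igf1, Itgax, Lpl and Spp1) were replicates 1, 3 and 4. For Spp1, replicates 1 to 6 read 12.36, 11.19, 13.46, 13.19, 11.64 and 11.39 in CD11B+ cells and 8.80, 6.97, 10.31, 9.66, 8.01 and 8.08 in O4+ cells. Itgax read 12.15, 10.87, 12.37, 12.03, 10.99 and 11.08 in CD11B+ cells and 8.65, 6.51, 9.25, 8.42, 6.77 and 7.11 in O4+ cells. In each series replicates 1, 3 and 4 were high and replicate 2 was the lowest. Over the 6 numbers, Pearson's r between the fractions was 0.994 for Itgax, 0.984 for Clec7a, 0.981 for Igf1, 0.97 for Spp1, 0.963 for Gpnmb, 0.94 for Lpl, 0.879 for Cst7 and 0.771 for Apoe, but 0.395 for Lgals3 and -0.255 for Axl. These are descriptions over 6 numbers, chosen after the values were seen. Both fractions were sorted from the same dissociated brains, but the labels do not state that equal numbers share pups. Neutrophil marker levels were 10.90, 11.33 and 10.61 on CD11B+ replicates 1, 3 and 4 and 10.30, 11.11 and 11.16 on replicates 2, 5 and 6. In O4+ cells, replicates 1 to 6 read 12.30, 11.82, 12.17, 11.62, 11.67 and 11.86 for the microglia markers. The monocyte markers read 8.20, 7.26, 8.06, 7.18, 7.60 and 7.31 there. For both lists replicates 1 and 3 were highest and replicate 4 lowest. In CD11B+ cells the microglia markers read 16.02, 15.98, 15.92, 15.97, 16.04 and 16.04. The part of these cell types in the spread was not tested.

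In O4+ cells at P5, 6 members rose and 0 fell after IL1B, where 5.07% of all named genes rose and 1.8% fell. The median log2 change was 1.02, against -0.06 over all named genes. Clec7a rose 4.14-fold, from 7.73 to 8.70 (median 8.00) after PBS to 9.55 to 10.46 (median 10.05) after IL1B (1.93 ± 0.18, adjusted p = 3.87e-05). Axl rose 3.45-fold, from 9.28 to 9.63 (median 9.42) to 10.78 to 11.28 (median 11.21) (1.70 ± 0.09, adjusted p = 1.19e-06). Cst7 rose 2.85-fold, from 5.19 to 6.22 (median 5.95) to 7.15 to 7.73 (median 7.46) (1.69 ± 0.20, adjusted p = 0.000175). Apoe, unlike in the CD11B+ fraction at this stage, was called, 2.15-fold higher, from 15.82 to 16.33 (median 16.09) to 16.78 to 17.28 (median 17.19) (1.05 ± 0.10, adjusted p = 3.61e-05). These 4 genes had groups that did not overlap.

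Lgals3 rose 3.13-fold with overlapping groups, 7.16 to 8.30 (median 7.56) after PBS and 8.09 to 10.22 (median 9.21) after IL1B (1.45 ± 0.37, adjusted p = 0.0185). Igf1 rose 1.69-fold, 7.63 to 8.51 and 8.08 to 9.37 (0.72 ± 0.21, adjusted p = 0.0325). The Igf1 call was lost without PBS replicate 1, 3 or 4 or IL1B replicate 1, 2, 3, 4 or 5 (adjusted p = 0.0545 to 0.0692). Spp1 (0.98, adjusted p = 0.0908) and Gpnmb (0.73, adjusted p = 0.154) were not called, but were called without IL1B replicate 6 (1.21, adjusted p = 0.0265, and 0.99, adjusted p = 0.0113). Itgax (0.48, 95% interval -0.09 to 1.06) and Lpl (-0.06, -0.44 to 0.33) had intervals that included 0. Under a slide block, Lgals3 and Igf1 lost their calls (adjusted p = 0.13 and 0.0687) and Spp1 gained one (1.75, adjusted p = 0.0376). Within the 2 slides that held both treatments, 10 members were higher on the 1 IL1B array than on 2 PBS arrays (median 1.61), and 9 were higher and 1 lower on the 1 IL1B array than on 4 PBS arrays (median 1.19).

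General markers of microglia moved with the members in this comparison. Of 12 microglia markers 11 rose in O4+ cells at P5 after IL1B (median log2 change 1.28), with mean levels of 12.18 to 12.85 after PBS and 13.66 to 14.08 after IL1B. Of 14 homeostatic genes 6 rose (median 0.55), among them Tmem119 (1.08), Csf1r (1.05) and Olfml3 (1.03), while 0 rose and 6 fell in CD11B+ cells. Of 10 neutrophil markers 9 rose (median 4.34), with mean levels of 3.82 to 4.64 and 6.12 to 9.62, and Ltf, Retnlg, Ngp and Mmp8 were well above background on no PBS array. Of 5 monocyte markers 3 rose, with mean levels of 7.04 to 7.68 and 7.84 to 9.31. Among the other disease-associated genes 9 of 20 rose, led by Cd52 (2.33), Lilrb4 (1.92) and the receptor pair Trem2 (1.45) and Tyrobp (1.22). Among receptors and partners 8 of 20 rose, led by Itgb2 (1.73), the galectin ligand Lgals3bp (1.45), Mertk (1.38), a relative of Axl, and the Clec7a signalling kinase Syk (1.03). The part of sorted microglia or neutrophils in the O4+ changes was not tested.

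At P10 the response of O4+ cells covered nearly all members. Of 10 members 9 rose and 0 fell, where 3.7% of all named genes rose and 1.67% fell, and the median log2 change was 1.41 against -0.005. Clec7a lay between 4.20 and 5.21 (median 5.03) after PBS and between 7.24 and 9.21 (median 8.40) after IL1B, a 10.3-fold rise (3.45 ± 0.33, adjusted p = 0.000767). Spp1 rose 6.03-fold, from 4.41 to 6.48 (median 5.85) to 6.97 to 10.31 (median 8.44) (2.90 ± 0.55, adjusted p = 0.00852). Itgax rose 5.44-fold, from 4.81 to 5.98 (median 5.32) to 6.51 to 9.25 (median 7.77) (2.43 ± 0.46, adjusted p = 0.00859). Every IL1B array was above every PBS array for these 3 genes. With normexp background correction their changes were smaller (2.08, 1.99 and 1.51) and still called.

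Gpnmb rose 4.77-fold, from 3.905 to 6.398 (median 5.99) to 7.06 to 9.29 (median 8.24) (2.54 ± 0.52, adjusted p = 0.0114). Igf1 (2.22-fold), Lgals3 (1.91-fold), Lpl (1.84-fold) and Apoe (1.68-fold) rose with no overlap of their groups. Cst7 rose 3.17-fold (1.60, adjusted p = 0.0154) with overlapping groups, and it was well above background on 6 of 6 IL1B arrays but on 1 of 6 PBS arrays. Axl was higher on every IL1B array (9.25 to 9.64 against 8.77 to 9.01, adjusted p = 0.00258) by 1.44-fold, under the fold required, and it passed 1.5 without PBS replicate 3, 4 or 6 (1.51-fold each). Cst7 changed by only 0.33 under normexp background correction, 1.26-fold, and Apoe by 0.45, 1.43-fold, under scaling to the 75th percentile, so neither was called there. Under a slide block 4 members were called (Clec7a, Lpl, Lgals3 and Apoe), and the adjusted p of Spp1, Itgax, Cst7, Igf1 and Gpnmb lay between 0.068 and 0.102. Within the 2 slides that held both treatments, all 10 members were higher after IL1B, with medians of 1.36 (2 IL1B arrays against 5 PBS arrays) and 0.94 (1 against 1).

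Of 12 microglia markers 6 rose at P10 as well (median 0.62), with mean levels of 11.17 to 11.95 after PBS and 11.62 to 12.30 after IL1B, and of 14 homeostatic genes 1 rose. Of 10 neutrophil markers 6 rose (median 1.59), with mean levels of 3.34 to 4.77 and 4.91 to 6.06. Of 6 astrocyte markers 3 rose (median 0.57), with mean levels of 9.21 to 9.58 and 9.70 to 10.17, and Apoe is abundant in astrocytes too. Of the other disease-associated genes 6 of 20 rose, led by B2m (1.58), Lilrb4 (1.51), Cd52 (1.04) and Ctsz (0.80). Among receptors and partners Igfbp2 (0.78), which binds Igf1, Lgals3bp (0.72) and the Axl-family ligand Pros1 (0.49) rose. The part of microglia, neutrophils and astrocytes in the O4+ changes was not tested at P10 either.

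**Figure D4:**
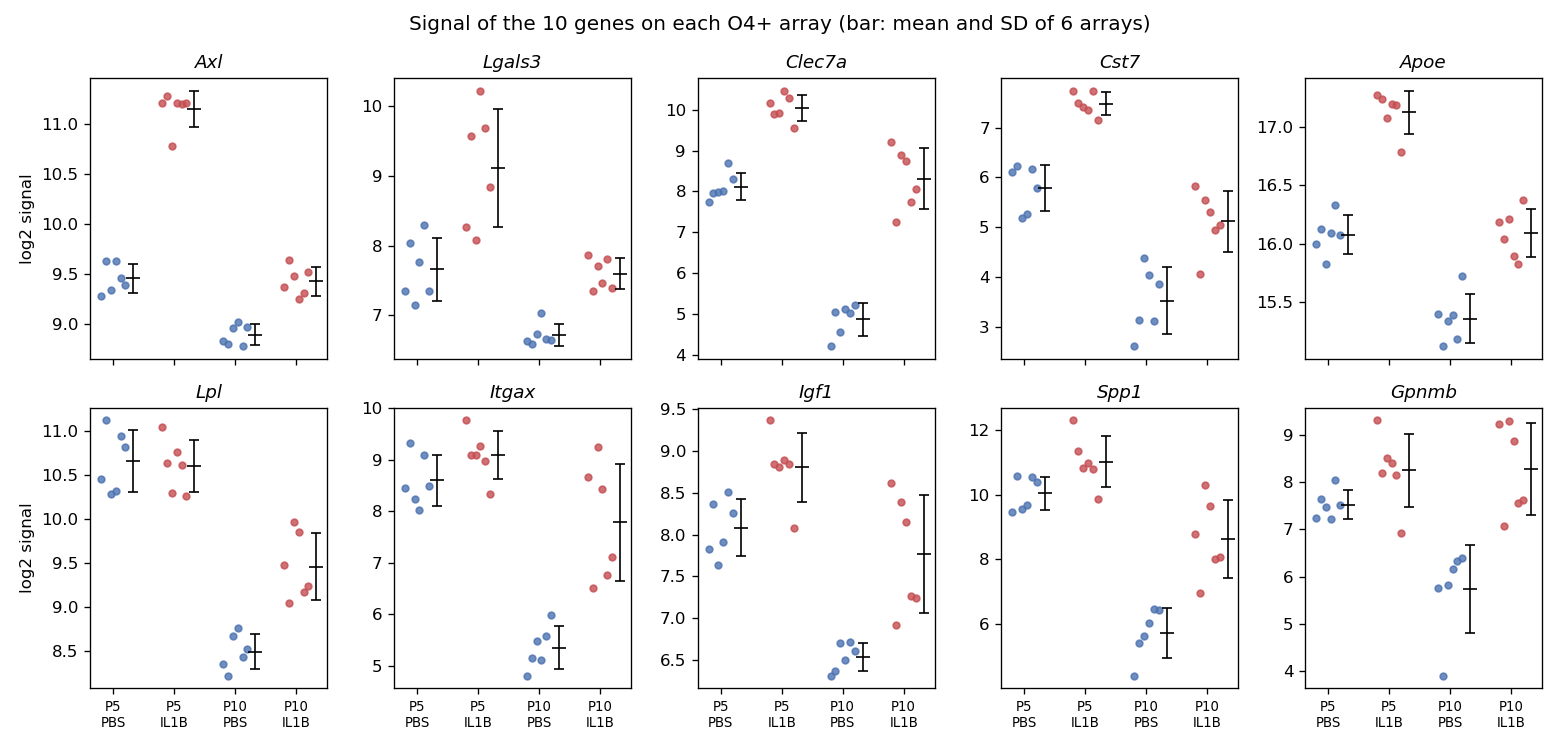
Log2 level of each member on each O4+ array (y axis, quantile-normalized), for PBS and IL1B at P5 and P10, with 1 point per array and the mean and SD beside them (n = 6 per group). Each panel has its own axis range. Spp1, Itgax, Clec7a and Gpnmb are lowest at P10 after PBS, and the P10 IL1B points lie above them with no overlap.

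By the interaction test in O4+ cells, 3 members responded more positively at P10 than at P5 and 1 less so, where 12% and 6.94% of all named genes did. Itgax (1.94 ± 0.55, adjusted p = 0.02), Clec7a (1.52 ± 0.38, adjusted p = 0.0102) and Lpl (1.02 ± 0.25, adjusted p = 0.00813) were in the first set. Axl (-1.16 ± 0.12, adjusted p = 2.41e-06) was in the second, as in CD11B+ cells. Gpnmb (1.81, adjusted p = 0.0584) and Spp1 (1.92, adjusted p = 0.0667) were not called. Both were called without P5 IL1B replicate 1 or P10 IL1B replicate 2 (adjusted p = 0.0226 to 0.0359), and Gpnmb also without P10 PBS replicate 6 (adjusted p = 0.0432) or P10 IL1B replicate 6 (adjusted p = 0.0481). Only Axl was called with slide as a block. With normexp background correction Clec7a (0.36, adjusted p = 0.5) and Itgax (1.11, adjusted p = 0.0768) were not called. Beside these values, 9 of 12 microglia markers responded less positively at P10 than at P5 in O4+ cells (median -0.84).

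The responses of the 2 fractions were compared in the same way. At P5, 6 members had a more positive response in O4+ than in CD11B+ cells and 0 a less positive one, where 12% and 5.22% of all named genes did. The 0 rests on Axl (-0.40, adjusted p = 0.0666), which was called less positive in O4+ cells under 5 of 10 alternatives: scaling to the 75th percentile (-0.74, adjusted p = 0.000794), normexp background correction (0.0121), the deposited matrix (0.0397), the filter on dim probes (0.0438) and a replicate block (0.0381). Lgals3 was called less positive with normexp (-1.26, adjusted p = 0.0119), and Gpnmb more positive (0.90, adjusted p = 0.0469). The differences were 1.31 for Cst7 (adjusted p = 0.000494), 1.29 for Itgax (0.00593), 1.16 for Igf1 (0.00143), 1.09 for Lpl (0.00174), 1.08 for Clec7a (0.00292) and 1.02 for Apoe (1.96e-06). Across the processing alternatives that of Apoe ran from 0.83 to 1.19 and was called in each. All 12 microglia markers also had a more positive response in O4+ cells at P5, by a median of 1.37, and so did 13 of 14 homeostatic genes. Leaving out single arrays added calls for Spp1 and Gpnmb (without O4+ IL1B replicate 6, adjusted p = 0.0236 and 0.00324), Lgals3 (without O4+ IL1B replicate 4, -1.17, adjusted p = 0.0423) and Axl (without CD11B+ PBS replicate 6 or IL1B replicate 1, adjusted p = 0.0434 and 0.0462). Under a slide block, Itgax, Clec7a and Cst7 were not called (adjusted p = 0.0702 to 0.294) and Spp1 was (2.69, adjusted p = 0.0261).

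At P10 Clec7a was the member called between the fractions (1.92 ± 0.42, adjusted p = 0.00664), so that 1 member responded more positively in O4+ cells and 0 less so, where 6.23% and 4.65% of all named genes did. For Spp1 the difference was 1.63 with a 95% interval of 0.17 to 3.1, and for Gpnmb 0.99 with an interval of -0.42 to 2.39, neither past the adjusted threshold. The Clec7a call was lost with normexp background correction (0.48, adjusted p = 0.441) and with slide as a block (1.96, adjusted p = 0.0564). Axl was called less positive in O4+ cells under 5 of 10 alternatives (75th percentile, normexp, deposited matrix, dim-probe filter and replicate block, adjusted p = 0.0205 to 0.0353), and Apoe more positive under 3 (slide, scan day and replicate blocks, adjusted p = 0.00894 to 0.0121). With the replicate number as a block 4 members were called, Clec7a with Apoe, Lpl (0.80, adjusted p = 0.0294) and Axl. A second call also appeared without O4+ PBS replicate 6 (Apoe, adjusted p = 0.0239), O4+ IL1B replicate 2 (Cst7, 0.0474), CD11B+ PBS replicate 6 (Axl, -0.93, 0.000138) or CD11B+ IL1B replicate 3 (Lpl, 0.0429).

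On the probe used for each gene, all members were enriched in CD11B+ cells without treatment. In PBS pups 10 of 10 were lower in O4+ than in CD11B+ cells at P5, where 24.4% of all named genes were higher and 23.3% lower, and again at P10, where 27.5% were higher and 22.6% lower. For this comparison all 48 arrays were normalized together. Clec7a lay between 11.91 and 12.70 (median 12.25) in CD11B+ cells and between 7.47 and 8.46 (median 7.75) in O4+ cells at P5, a 22.6-fold difference, and 59.3-fold at P10. Lgals3 was 26.1-fold lower in O4+ cells at P5 and 26.9-fold at P10, and Spp1 13.2-fold and 38.9-fold. Itgax (20.5-fold and 37.4-fold), Igf1 (17.9-fold and 17.1-fold), Gpnmb (12.6-fold and 14.9-fold) and Lpl (9.48-fold and 15.8-fold) followed. For Igf1 the size depended on the probe. A_55_P2085979 differed by -1.58 on the log2 scale at P5 and by -0.38 at P10, where it was not called and its groups overlapped. A_55_P2031636 differed by -3.07 and -1.705, against -4.12 and -4.13 for the probe used. Among the probes used, the smallest differences were those of Apoe (3.73-fold and 4.63-fold) and Axl (2.77-fold and 2-fold). Across the processing alternatives the log2 difference of Apoe at P5 ran from -2.81 to -1.90, against -1.91 in the main fit. At P10 it ran from -6.39 to -4.44 for Clec7a (main fit -6.21), -5.63 to -4.19 for Spp1 (-5.45) and -5.48 to -3.90 for Itgax (-5.32). The O4+ signals of Clec7a, Spp1 and Gpnmb were well above background on 5 of 6 arrays at P10. Whether the differences between fractions grew from P5 to P10 was not tested. Cst7 was 18-fold lower at P5, and at P10 its O4+ signal was well above background on 1 of 6 arrays, so no fold is given. Without CD11B+ PBS replicate 6 the log2 difference of Axl at P10 was -0.91 in place of -1.11, and 10 members were still called. No member lost its call under any alternative or with any array left out.

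Of the receptors and partners of the members, more were lower than higher in O4+ cells. At P5, 5 of 20 were higher and 11 lower, where 24.4% of all named genes were higher and 23.3% lower. The counts at P10 were 4 and 12, where 27.5% of all named genes were higher and 22.6% lower. The share that was higher was thus near or under that of all genes. Tyro3, the relative of Axl, was 19.1-fold higher in O4+ cells at P5 and 35.6-fold at P10. Mertk, the third receptor of that family, was 26.6-fold lower at P10, as was Itgb2 (26.8-fold), the partner chain of Itgax. Card9, the adaptor of Clec7a, was well above background on 0 of 6 O4+ arrays at P10, where it was at least 19.3-fold lower, as measured against the lowest signal among probes well above background.

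Lpl and Igf1 had more than 1 probe, and their agreement bears on the values above. The values of the text come from the probe with the highest mean signal. The probe positions are those of the array file (mm9), all on plus strands: Lpl on chr8:71430267-71430326 and chr8:71425050-71425109, and Igf1 with 5 probes on chromosome 10 of which 2 overlap each other. The first 30 of 60 bases are shown for 3 of the Igf1 probes, since they gave unlike results.
Igf1 A_55_P2031631 (chr10:87393581-87393640, used in the text): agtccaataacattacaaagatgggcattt
Igf1 A_55_P2031636 (chr10:87395924-87395983): agaaatgtaaatggaataagaggtcagctg
Igf1 A_55_P2085979 (chr10:87378456-87378515): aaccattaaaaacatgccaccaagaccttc
The second Lpl probe gave the same calls in the 4 IL1B comparisons and both stage comparisons (for example -1.31 at P5 in CD11B+ cells and 0.96 at P10 in O4+ cells). For Igf1, A_55_P2085984, which overlaps the probe used, gave the same calls as it in these 6 comparisons. The others did not. A_55_P2031636 was called higher after IL1B in CD11B+ cells at P10 (0.83, adjusted p = 0.0176), where the probe used was not, and changed by 0 in O4+ cells at P10. A_55_P2085979 was lower after IL1B in O4+ cells at P10 (-0.40, adjusted p = 0.0253, 1.31-fold), opposite to the probe used (1.23). All 5 Igf1 probes fell from P5 to P10 in CD11B+ cells. In O4+ cells 3 fell, while A_55_P2031636 changed by 0.03 and A_55_P2085979 by 0.47 (1.37-fold higher, adjusted p = 0.00223, under the fold required), against -1.55 for the probe used. By interaction at P10, both of these probes responded less positively in O4+ than in CD11B+ cells (-0.83 and -0.59, adjusted p = 0.0073 and 0.0124), where the probe used differed by 0.44 and was not called. Under the median of all probes, Igf1 was not called in O4+ cells at P5 (0.40, adjusted p = 0.138).

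Across the 24 CD11B+ arrays the members formed no single block. The closest pair was Itgax and Igf1, with Pearson's r of 0.968, and 0.881 after the group means were removed. Axl and Lgals3 correlated at 0.962, but at 0.473 without the group means. Lpl against Lgals3 (0.024) and Lpl against Axl (0.03) were the lowest of the 45 pairs. Without the group means, Itgax, Gpnmb, Igf1, Clec7a, Lpl and Spp1 correlated with each other at 0.607 or more. These values describe 24 arrays that share groups and normalization.

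**Figure D5:**
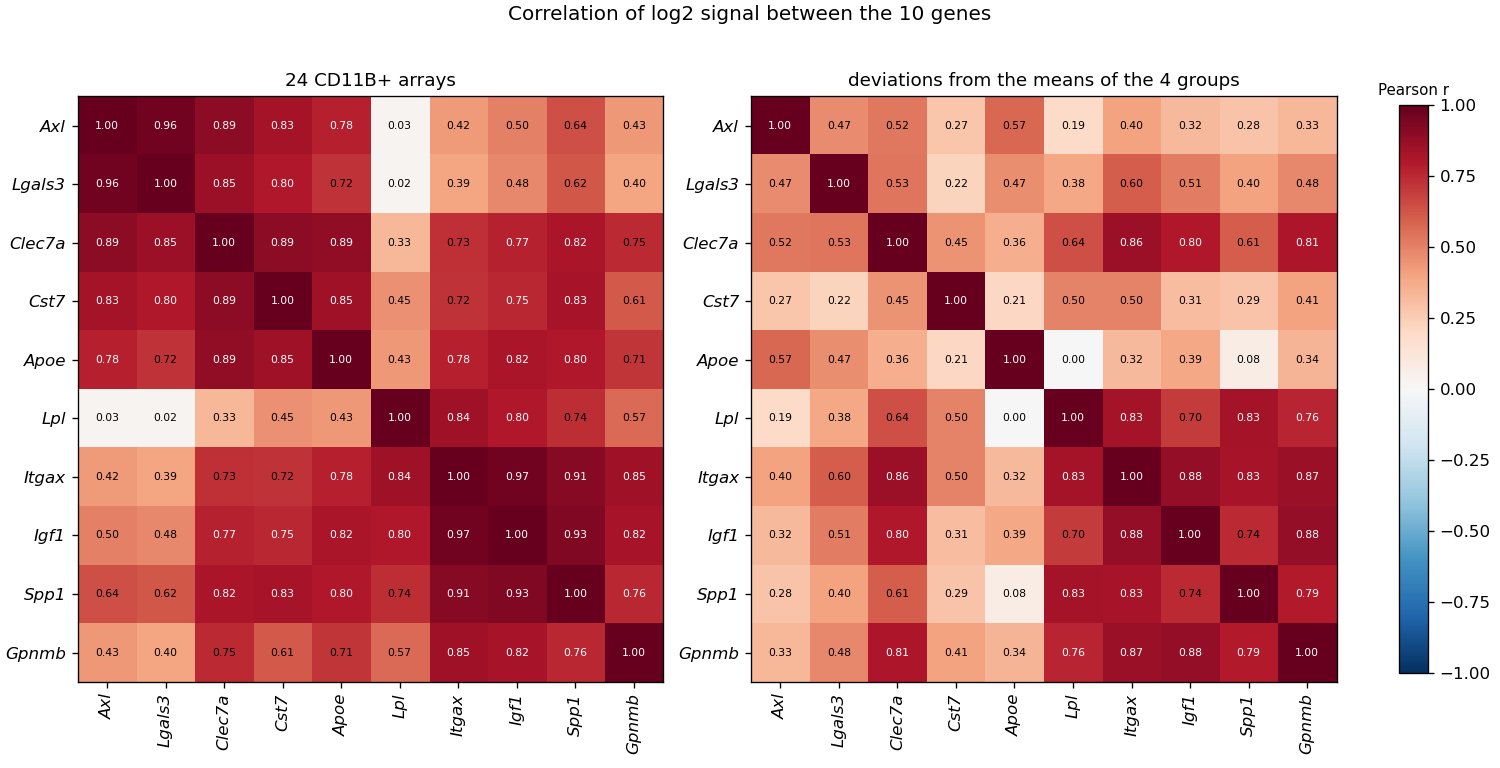
Pearson's r between members over the 24 CD11B+ arrays, over all arrays (left) and after group means were removed (right), with the value in each square and colour from -1 to 1. Axl and Lgals3 pair with each other (0.962) and not with Lpl (0.03 and 0.024), while Itgax and Igf1 correlate both before and after group means are removed (0.968 and 0.881).

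Among 13520 other named genes well above background on all 24 CD11B+ arrays, those most like each member by Pearson's r were also not the same throughout. Hpse, which encodes heparanase, was the nearest gene to Itgax (0.951), Igf1 (0.97) and Gpnmb (0.863). Fabp5 was among the 3 nearest to Spp1 (0.958) and Igf1 (0.955), and 5430435G22Rik was nearest to Spp1 (0.964). Apoc2, another apolipoprotein, was nearest to Axl (0.983), and Irg1, which makes itaconate, to Lgals3 (0.989), with the formyl peptide receptor Fpr2 the third nearest (0.983). Car13, a carbonic anhydrase, was among the 3 nearest to Apoe (0.95). Clec7a was nearest to Anpep (0.95), Lpl to Aldh5a1 (0.942) and Cst7 to Dnajc12 (0.929).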

How the data were processed

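RNA from O4+ and CD11B+ cells was amplified, labelled with Cy3 and hybridised to 48 1-colour Agilent arrays, 1 for each sample. The deposited scanner files hold spot intensities as made by the authors with Agilent Feature Extraction 10.7.3.1, background-subtracted and detrended within the array, with flags for spots well above background, saturated or non-uniform. The authors also deposited a matrix of linear ratios, which matched the processed intensities divided by 1 constant per array, and it was used as an alternative. Columns of values belonging to no sample numbered 0.

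Quantile normalization of the log2 processed intensity took in the 24 arrays of each fraction, or all 48 where fractions were compared. Spots of a probe were averaged, and 278 non-uniform spot values were left out. A gene was represented by its probe with the highest mean signal. Tests were those of limma (version 3.58.1, under R 4.3.3; tables were read by the data.table package, version 1.17.8), with Benjamini-Hochberg adjustment over 55681 probes, fitted on the 2 groups compared or, for interactions, on 4. A gene was called at an adjusted p under 0.05 and a ratio of medians over 1.5. The scripts were tested on simulated data.

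Samples were grouped by their labels. The labels do not say which arrays share pups, so p-values measure the spread between these samples. Replicate numbers were not treated as pairing, as the labels state none. Only 1 of 10 pairs of groups, O4+ and CD11B+ cells at P10 after IL1B, had every same-number correlation over 0.1. Between fractions, the closest CD11B+ array bore the same number for 5 of 6 O4+ arrays at P5 after PBS and 2 after IL1B. At P10 it did so for 4 after PBS and 6 after IL1B. If equal numbers share pups, the tests between fractions leave out that pairing, and a replicate block was run as an alternative. Alternatives covered normalization, background correction, dim probes, the methods' t-test, the fold rule, slide, scan day, replicate number, the choice of probe and each array left out in turn. All members were named in the text, with up to 4 called genes per list and comparison by size of change, and the 3 genes most like each member. The members and lists were chosen with earlier results of these data known. Exon and UTR annotation of the probes and protein sequences were not used here, and a few genes of the lists are not reported here.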

Additional observations from a re-analysis of the deposited data

Results flagged for a closer look

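Of 80 sets of 6 arrays (10 members in 8 groups), 9 held 1 array far from the other 5, and chance gives about 1 in 20. The P10 CD11B+ PBS replicate 6 was the highest of its group for Itgax (11.202), Clec7a (11.644), Axl (10.676) and Lgals3 (12.14). Apoe stood high on CD11B+ P10 IL1B replicate 6 (18.346) and low on CD11B+ P5 IL1B replicate 3 (18.235). Gpnmb was low on O4+ P10 PBS replicate 2 (3.905), Axl was low on O4+ P5 IL1B replicate 3 (10.783), and Lgals3 was high on O4+ P10 PBS replicate 4 (7.035).

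The IL1B response differed between stages or fractions in the interaction test for the following log2 values. At P10 minus P5 in O4+ cells they were 1.522 for Clec7a, 1.02 for Lpl, 1.945 for Itgax and -1.161 for Axl. At P10 minus P5 in CD11B+ cells they were 0.24 for Apoe, 1.397 for Lpl, 2.106 for Itgax, 1.954 for Gpnmb, 1.286 for Igf1, 1.502 for Spp1, -0.956 for Axl and -1.465 for Lgals3. For O4+ minus CD11B+ cells at P5 they were 1.306 for Cst7, 1.02 for Apoe, 1.077 for Clec7a, 1.091 for Lpl, 1.293 for Itgax and 1.163 for Igf1. At P10 the value was 1.916 for Clec7a.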

How the results depend on the processing

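No member's called change turned its direction under any alternative run. Counting each member in each comparison and alternative, 1340 kept their side of the threshold, 62 lost a call and 38 gained one, and with 1 array left out these counts were 1843, 51 and 26. With slide as a block, 4 members were called after IL1B in O4+ cells at P10 and 0 in CD11B+ cells at P10, and by interaction 1 differed between stages in O4+ cells and 2 in CD11B+ cells. In CD11B+ cells at P10, 3 were called by the methods' t-test and 2 with a replicate block. The replicate numbers shared no stated source, and with a replicate block 4 members differed between fractions at P10. That count was 2 under scaling to the 75th percentile, the deposited matrix, the filter on dim probes or scan day as a block. Between stages in O4+ cells 7 differed with the deposited matrix. The cause was not tested.

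With each array left out in turn, the number of members called after IL1B ran from 5 to 8 in O4+ cells at P5, 9 to 10 in O4+ cells at P10, 5 to 5 in CD11B+ cells at P5 and 2 to 8 in CD11B+ cells at P10. It ran from 9 to 10 between stages in O4+ PBS cells, 9 to 9 in CD11B+ PBS cells and 10 to 10 between fractions at each stage. By interaction it ran from 4 to 6 and 7 to 9 between stages in O4+ and CD11B+ cells, and from 6 to 8 and 1 to 2 between fractions at P5 and P10. Signal near background limits Cst7, Clec7a, Gpnmb and Spp1 in O4+ cells at P10 after PBS, where 1, 5, 5 and 5 of 6 arrays were well above it.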
